A study of Homo sapiens with 24 samples.

Results

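The 10 genes described here are a group of autophagy genes, followed in human HepG2 hepatoma cells exposed to the proteasome inhibitor bortezomib (Btz) and to drugs that act on the integrated stress response. They are a list of gene names, set with earlier results of these data known, and all 10 were found among the 18915 genes of the count matrix. By role they are the ATG8 family genes *MAP1LC3B*, *GABARAP*, *GABARAPL1* and *GABARAPL2*, the cargo receptor genes *SQSTM1*, *NBR1* and *TAX1BP1*, the initiation kinase gene *ULK1*, the phosphoinositide effector gene *WIPI1*, and the conjugation factor gene *ATG12*. All 10 passed the filter on low counts and were tested among 12685 genes, although *GABARAP* passed with only 0 to 15 counts per library.

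Autophagy encloses cytoplasmic material in a double membrane vesicle and delivers it to the lysosome. ATG8 proteins are coupled to the lipid of the growing membrane, and cargo receptors bind ubiquitin-tagged material with one end and ATG8 proteins with the other. The pathway is the main alternative to the proteasome for the removal of ubiquitin-tagged and aggregated proteins, and its genes are known targets of several stress-responsive transcription factors.

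The cells were exposed for 10 h to DMSO (vehicle), ISRIB (50 nM), nelfinavir (20 µM), bortezomib (50 nM), bortezomib with nelfinavir, or bortezomib with ISRIB at those same concentrations, with 4 biological replicates in each of the 6 conditions. ISRIB reverses the translational effect of eIF2α phosphorylation, and nelfinavir, an HIV protease inhibitor, activates the integrated stress response and raises the level of the transcription factor ATF4. The model is 1 established cell line at 1 time point and 1 concentration of each drug. The mRNA 3′ ends were sequenced, and the 24 libraries held between 5154533 and 6943164 counts. Levels are given as CPM (counts scaled to a common library size) after scaling the libraries with TMM factors. Levels are compared between conditions for the same gene and not between genes.

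The hepatoma markers *ALB*, *AFP*, *APOA1*, *APOB*, *TTR*, *SERPINA1* and *FGB* were counted in every library, with at least 108 counts each, whereas the fibroblast gene *COL1A1* had 0 to 5 counts. Genes encoded by mitochondrial DNA took a share of the counts that was 33.8% ± 1.2 in bortezomib and 21.5% ± 1.32 in DMSO (SD, n = 4). By an exact permutation test, two-sided, this difference had p = 0.0286, which 4 against 4 libraries cannot go below. With the mitochondrial genes left out of the counts, the same number of the 10 genes was called higher with bortezomib (8, with 0 lower), and *GABARAPL1* had a log2 fold change of 4.96, *MAP1LC3B* of 2.91 and *SQSTM1* of 2.02. Dividing by the library totals alone, without TMM factors, shifted the median log2 fold change of all genes between bortezomib and DMSO to -0.495, and left 1490 genes higher and 6266 lower in place of 3498 and 3275. This scaling moved the split by over 10 percentage points also for bortezomib against nelfinavir (1197 higher and 6113 lower in place of 3191 and 2989) and bortezomib with ISRIB against bortezomib (650 and 955 in place of 876 and 677). In bulk RNA, more transcript per cell and a larger fraction of cells with the transcript cannot be told apart.

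**Figure D1:**
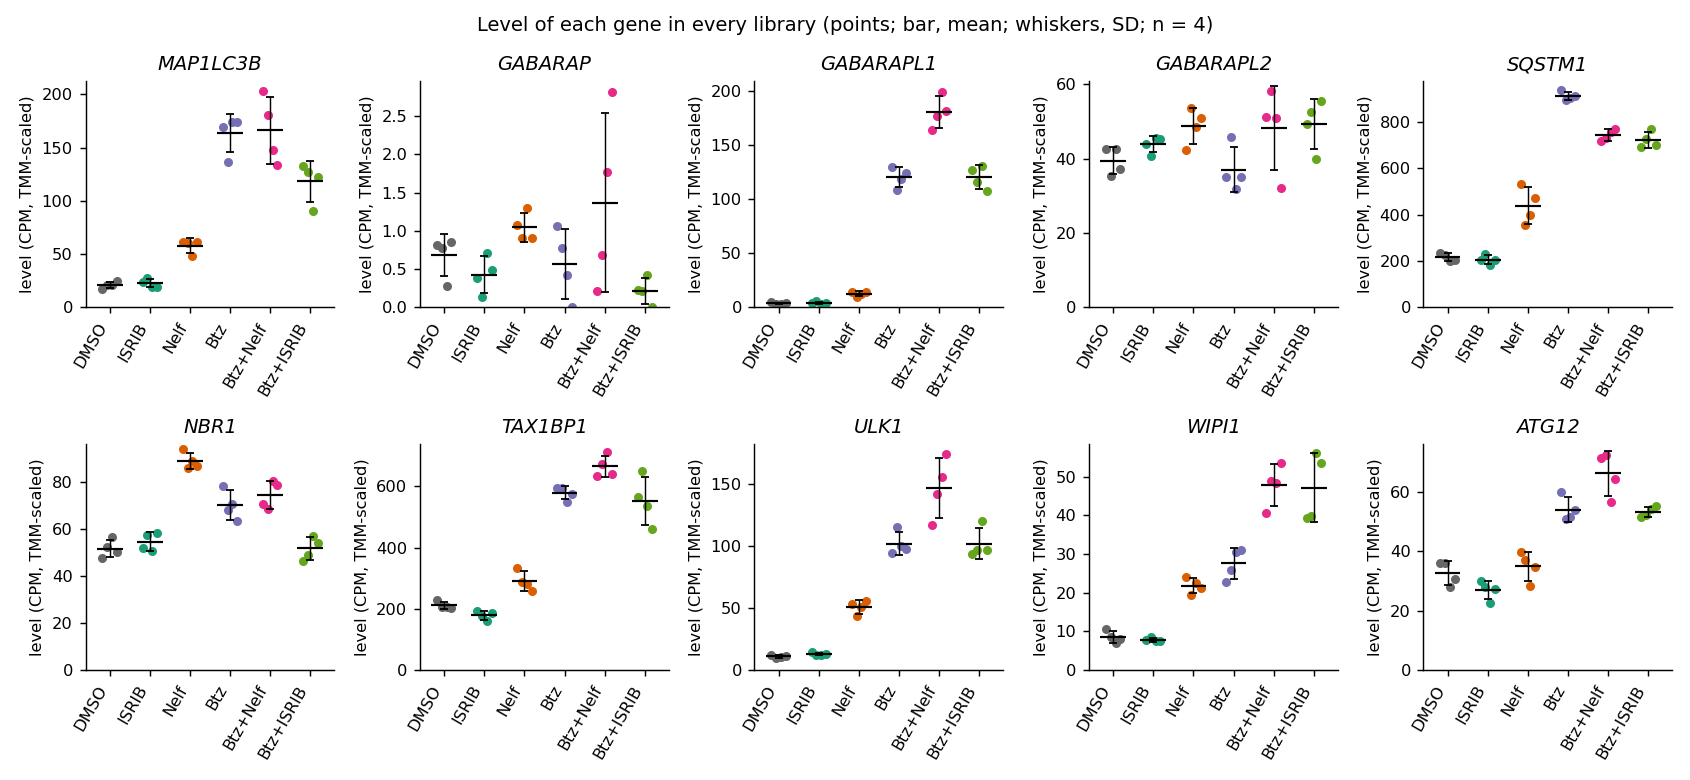
Level of each of the 10 genes (CPM after TMM scaling, linear axes that start at 0) in every library of the 6 conditions; points are libraries, horizontal bars are means and whiskers are the SD (n = 4). For *GABARAPL1* the DMSO, ISRIB and nelfinavir libraries lie between 2.99 and 14.5 CPM and all libraries with bortezomib between 108 and 199 CPM, while *GABARAPL2* spans 31.9 to 58.4 CPM over all 24 libraries.

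First, the response to each drug alone was examined. With bortezomib, 8 of the 10 genes were higher than in DMSO and none was lower at an adjusted p below 0.05 (edgeR quasi-likelihood test, Benjamini-Hochberg over all tested genes). Of all tested genes, 27.6% were higher and 25.8% lower in this comparison. With library totals alone 6 of the 10 were higher and 1, *GABARAPL2*, was lower, where 1490 of all genes were higher and 6266 lower. The median log2 fold change of the 10 genes was 1.56, against 0 over all genes. Nelfinavir alone left 7 of the 10 genes higher and none lower, where 10.4% of all genes were higher and 8.84% lower, and the median of the 10 genes was 0.90 on the log2 scale, against 0.01 over all genes. With ISRIB alone none of the 10 genes was called by edgeR, and the share of all genes called was 0% in either direction. In that comparison 2 of the 10 genes had an unadjusted p below 0.05, and DESeq2 called 0 of them.

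Among the ATG8 genes, *GABARAPL1* (ENSG00000139112), whose product acts in late steps of autophagosome formation and in cargo binding, showed the largest response of the group to bortezomib. Its level in the DMSO libraries was 4.65, 2.99, 3.50 and 3.68 CPM, and in the bortezomib libraries it was 130, 108, 119 and 124 CPM. The groups were far apart, with every bortezomib library above every DMSO library. The log2 fold change was 5.00 (SE 0.146, adjusted p = 4.05e-24, edgeR), a 32.1-fold increase that ranked 34 among the estimated increases of all tested genes. With nelfinavir the level was 14.5, 9.94, 12.1 and 14.3 CPM, all above DMSO, and the log2 fold change was 1.76 (SE 0.161, adjusted p = 2.06e-10, edgeR). ISRIB alone gave 3.25 to 5.51 CPM, which overlapped DMSO.

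*MAP1LC3B* (ENSG00000140941) encodes LC3B, the most widely used marker of autophagosomes. In DMSO its level was 17.7, 21.2, 20.7 and 24.6 CPM, and in bortezomib it was 169, 137, 175 and 174 CPM. The increase was 7.77-fold (log2 2.96, SE 0.145, adjusted p = 5.82e-18, edgeR), with no overlap between the groups. Nelfinavir gave 61.8, 60.8, 48.2 and 61.8 CPM, again above every DMSO library, which was a 2.76-fold increase (log2 1.46, SE 0.143, adjusted p = 1.08e-09, edgeR).

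The other ATG8 genes behaved differently. *GABARAPL2* (ENSG00000034713), which encodes GATE-16, measured 42.5, 35.4, 42.6 and 37.3 CPM in DMSO and 35.1, 45.8, 31.9 and 35.2 CPM in bortezomib. These ranges overlapped, and the log2 difference was -0.09 (95% interval -0.38 to 0.20, adjusted p = 0.620, edgeR). With library totals alone it was called lower, at -0.59 (adjusted p = 3.94e-04, edgeR). In nelfinavir the log2 difference was 0.31 (interval 0.03 to 0.59, adjusted p = 0.120, edgeR), and it was called with only the groups compared (adjusted p = 0.0197, edgeR).

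*GABARAP* (ENSG00000170296) was close to the detection limit. It had 2 to 7 counts per library in DMSO, 1 to 5 in ISRIB, 7 to 10 in nelfinavir, 0 to 5 in bortezomib, 1 to 15 in bortezomib with nelfinavir, and 0 to 2 in bortezomib with ISRIB. With 1 bortezomib library at 0, and a count of 0 allowing up to 3 counts, a change was not detectable at this depth for bortezomib against DMSO (log2 difference -0.26, 95% interval -1.80 to 1.27). In the GENCODE annotation on GRCh37, *GABARAP* (chr17:7143327-7145768, minus strand) overlaps over 2023 bases a protein coding gene model on the same strand, ENSG00000262526, which begins 419 bases from its 3′ end. The last 419 bases of *GABARAP* lie outside the overlap, and ENSG00000262526 is not among the genes of the count matrix. How reads in that overlap were counted is not given in the sources used here, and its part in the low counts was not tested.

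Promoter sequences were taken from RefSeq (GRCh38.p14) as windows that begin upstream and end downstream of each annotated start site, and 14 windows were found for the 10 genes. They were searched on both strands for the E-box core of the CLEAR element bound by TFEB (CACGTG), the antioxidant response element (TGACNNNGC), the heat shock element (GAANNTTC or TTCNNGAA) and the C/EBP-ATF element (TGATGNAA). A cAMP response element (TGACGTCA) was added after the sequences were seen. None of the 14 windows held the E-box core or the C/EBP-ATF letters, which occur in 7.26% and 3.62% of 35116 promoter windows. An antioxidant response element was in 1 window (13.3% of all windows), a heat shock element in 2 (13.5%) and the cAMP response element in 1 (1.85%). The windows of 3 ATG8 genes are shown, because each held a match, with the matching letters in capitals:
GABARAPL1, chr12:10212627-10212926, + strand: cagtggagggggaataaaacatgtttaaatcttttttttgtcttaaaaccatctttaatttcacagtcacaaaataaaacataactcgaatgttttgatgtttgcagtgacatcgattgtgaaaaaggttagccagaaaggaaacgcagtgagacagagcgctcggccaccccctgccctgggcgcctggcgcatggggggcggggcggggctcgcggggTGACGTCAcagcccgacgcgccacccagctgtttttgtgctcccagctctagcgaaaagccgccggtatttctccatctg
MAP1LC3B, chr16:87392086-87392385, + strand: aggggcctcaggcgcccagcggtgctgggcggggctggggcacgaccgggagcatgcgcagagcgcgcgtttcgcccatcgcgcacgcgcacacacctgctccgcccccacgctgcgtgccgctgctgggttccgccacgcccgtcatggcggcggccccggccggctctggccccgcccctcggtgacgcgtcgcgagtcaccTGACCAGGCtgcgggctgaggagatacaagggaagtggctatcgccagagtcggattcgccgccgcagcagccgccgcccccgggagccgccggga
GABARAPL2, chr16:75566129-75566428, + strand: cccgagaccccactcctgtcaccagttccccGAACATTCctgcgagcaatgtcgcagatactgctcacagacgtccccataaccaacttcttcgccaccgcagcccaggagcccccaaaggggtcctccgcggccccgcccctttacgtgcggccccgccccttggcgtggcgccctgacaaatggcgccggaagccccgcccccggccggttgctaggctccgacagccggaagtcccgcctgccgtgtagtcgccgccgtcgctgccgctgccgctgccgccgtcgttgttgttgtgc

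The *GABARAPL1* window held the cAMP response element, beginning at position -30 from the start site. The match in *MAP1LC3B* was an antioxidant response element at position -46. In *GABARAPL2* a heat shock element lay at position -219, and the second heat shock element match was in 1 of 2 *TAX1BP1* windows. A match of letters is a description only, and the absence of one from these windows says nothing of the factor.

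Among the cargo receptors, *SQSTM1* (ENSG00000161011) encodes p62, which gathers ubiquitin-tagged proteins into aggregates for autophagy. It measured 235, 228, 199 and 206 CPM in DMSO and 938, 895, 902 and 909 CPM in bortezomib. The bortezomib libraries lay close together and far above DMSO, and the increase was 4.20-fold (log2 2.07, SE 0.0949, adjusted p = 1.04e-18, edgeR). In nelfinavir the values were 532, 354, 398 and 471 CPM, a 2.02-fold increase (log2 1.01, SE 0.0926, adjusted p = 2.27e-10, edgeR).

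*TAX1BP1* (ENSG00000106052), a receptor that also recruits the initiation machinery to ubiquitin condensates, measured 230, 205, 206 and 204 CPM in DMSO and 595, 595, 549 and 576 CPM in bortezomib. That was a 2.74-fold increase without overlap (log2 1.45, SE 0.0915, adjusted p = 4.16e-15, edgeR). Nelfinavir gave 334, 289, 283 and 259 CPM, a smaller increase of 1.38-fold (log2 0.46, adjusted p = 2.53e-04, edgeR).

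*NBR1* (ENSG00000188554), a receptor that works together with p62, had the reverse order of drug responses. Its level was 47.6, 52.5, 56.5 and 50.4 CPM in DMSO, 78.5, 68.3, 70.6 and 63.3 CPM in bortezomib, and 94.0, 86.2, 88.9 and 87.1 CPM in nelfinavir. Neither drug group overlapped DMSO, and all nelfinavir libraries lay above all bortezomib libraries. The increase was 1.36-fold with bortezomib (log2 0.44, SE 0.0966, adjusted p = 2.56e-04, edgeR) and 1.72-fold with nelfinavir (log2 0.78, SE 0.0946, adjusted p = 1.03e-07, edgeR). The bortezomib change depended on the scaling: with library totals alone it was -0.06 (adjusted p = 0.649, edgeR).

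For initiation and nucleation, *ULK1* (ENSG00000177169) encodes the kinase that starts autophagosome formation. It measured 12.4, 10.0, 10.8 and 11.2 CPM in DMSO, 53.6, 43.2, 50.6 and 55.7 CPM in nelfinavir, and 94.5, 115, 100.3 and 97.7 CPM in bortezomib. The 3 groups did not overlap. The increase was 9.15-fold with bortezomib (log2 3.19, SE 0.129, adjusted p = 3.86e-20, edgeR) and 4.56-fold with nelfinavir (log2 2.19, SE 0.128, adjusted p = 3.32e-15, edgeR), and *ULK1* had the largest nelfinavir response of the 10 genes.

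*WIPI1* (ENSG00000070540) encodes a protein that binds phosphatidylinositol 3-phosphate on the forming membrane. Its level was 10.6, 8.46, 7.14 and 7.97 CPM in DMSO, 24.01, 19.5, 22.5 and 21.3 CPM in nelfinavir, and 22.7, 25.99, 30.4 and 31.1 CPM in bortezomib. Both drugs raised it above every DMSO library, by 2.54-fold with nelfinavir (adjusted p = 3.16e-08, edgeR) and 3.21-fold with bortezomib (adjusted p = 5.83e-11, edgeR). The nelfinavir and bortezomib libraries overlapped.

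*ATG12* (ENSG00000145782) encodes the ubiquitin-like protein that is joined to ATG5 in the complex that lipidates ATG8 proteins. It measured 35.9, 36.2, 27.9 and 30.5 CPM in DMSO and 59.9, 50.8, 51.5 and 53.8 CPM in bortezomib. The increase was 1.65-fold (log2 0.73, SE 0.120, adjusted p = 4.77e-06, edgeR), but 0.23 on the log2 scale and not called with library totals alone (adjusted p = 0.118, edgeR). In nelfinavir the level was 28.3 to 39.7 CPM, which overlapped DMSO (log2 difference 0.10, 95% interval -0.14 to 0.34).

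**Figure D2:**
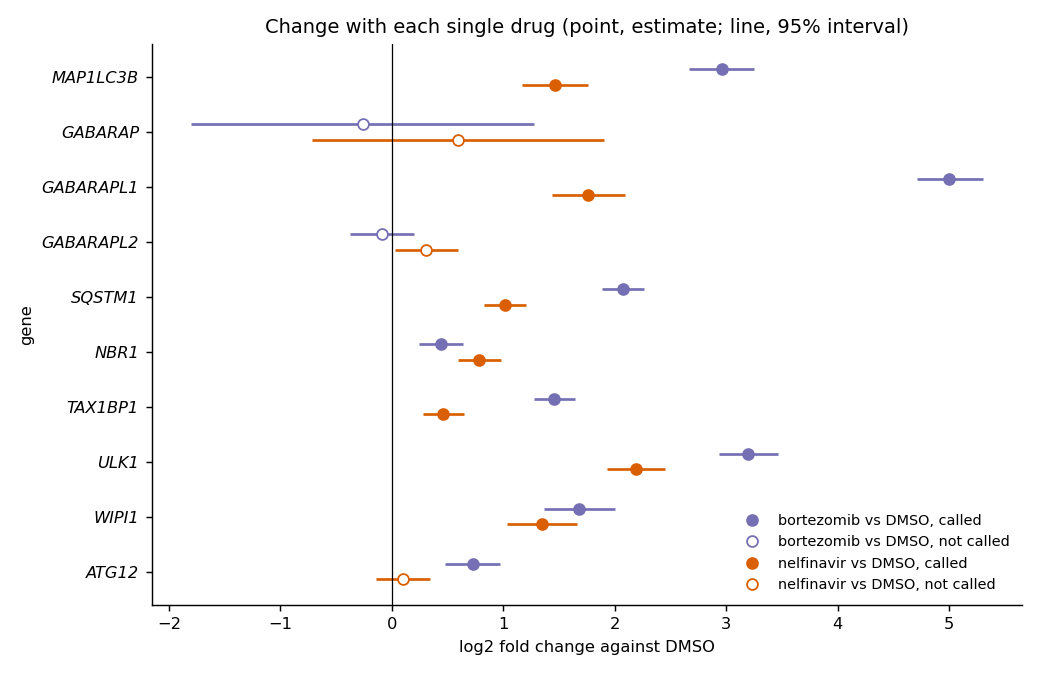
Log2 fold change of each gene against DMSO (horizontal axis) for bortezomib and nelfinavir; points are edgeR estimates, lines their 95% intervals, and filled points passed an adjusted p of 0.05. Bortezomib estimates run from -0.26 for *GABARAP* to 5.00 for *GABARAPL1* and nelfinavir estimates from 0.10 for *ATG12* to 2.19 for *ULK1*; for *NBR1*, *GABARAPL2* and the barely detected *GABARAP* the nelfinavir point is the one further to the right.

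Bortezomib and nelfinavir were then compared directly. Relative to nelfinavir, 6 of the 10 genes were higher in bortezomib and 2 were lower, beside 25.2% and 23.6% of all genes. The higher genes were *GABARAPL1* (log2 3.24), *MAP1LC3B* (1.49), *SQSTM1* (1.05), *ULK1* (1.00), *TAX1BP1* (0.99) and *ATG12* (0.63). Lower in bortezomib were *GABARAPL2* at a log2 difference of -0.40 (adjusted p = 0.0190, edgeR), where the libraries overlapped and the call was lost without nelfinavir replicate 2 (-0.35, adjusted p = 0.0574, edgeR), and *NBR1* at -0.34 (adjusted p = 0.00309, edgeR). *WIPI1* had a log2 difference of 0.34 (95% interval 0.04 to 0.63, adjusted p = 0.0537, edgeR). With library totals alone, the median of all genes in this comparison was -0.476, *ATG12* was not called (log2 0.15) and *WIPI1* was at -0.14.

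Next, nelfinavir was added to bortezomib. Relative to bortezomib alone, 4 of the 10 genes were higher and 1 was lower, where 15.6% of all genes were higher and 13.4% lower. *WIPI1* rose to 40.6, 48.8, 48.3 and 53.5 CPM (log2 fold change 0.80, SE 0.143, adjusted p = 6.27e-05, edgeR). *GABARAPL1* reached 164, 177, 199 and 181 CPM (log2 0.59, SE 0.108, adjusted p = 8.97e-05, edgeR). For *ULK1* the level was 117, 142, 155 and 174 CPM (log2 0.53, SE 0.110, adjusted p = 4.27e-04, edgeR). In these 3 genes every co-treated library lay above every library with bortezomib alone.

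*SQSTM1* went the other way and fell to 715, 732, 757 and 768 CPM, all below bortezomib alone but above nelfinavir alone (log2 -0.29, SE 0.0911, adjusted p = 0.0145, edgeR). *GABARAPL2* was called narrowly at 51.4, 58.4, 51.1 and 32.1 CPM, which overlapped bortezomib alone (log2 0.38, SE 0.144, adjusted p = 0.0468, edgeR). Both calls were fragile. That of *SQSTM1* was lost without replicate 1 or 2 of the co-treatment or without any 1 of the 4 bortezomib libraries (adjusted p up to 0.0897, edgeR). That of *GABARAPL2* was lost without replicates 1, 2 or 3 of the co-treatment or replicates 1, 3 or 4 of bortezomib (adjusted p up to 0.109, edgeR). It was lost too with upper-quartile factors (adjusted p = 0.0805, edgeR), library totals alone (0.0682), mitochondrial genes left out (0.0553) and only the groups compared (0.154). For *MAP1LC3B* the co-treated level of 203, 181, 148 and 134 CPM overlapped bortezomib alone (log2 difference 0.02, 95% interval -0.24 to 0.29). *ATG12* had a log2 difference of 0.29 (adjusted p = 0.0614, edgeR; called by DESeq2 at 0.0359), *TAX1BP1* of 0.20 (adjusted p = 0.0895, edgeR) and *NBR1* of 0.09 (adjusted p = 0.507, edgeR), and *GABARAP*, at 1 to 15 counts, was not called either.

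The interaction of nelfinavir with bortezomib is the effect of nelfinavir on bortezomib-treated cells less its effect on vehicle-treated cells, on the log2 scale. It was below 0 and called for 5 of the 10 genes and above 0 for none, where 10% and 9.74% of all genes were called in those directions. The values were -1.66 for *ULK1* (SE 0.169, adjusted p = 5.59e-09, edgeR), -1.44 for *MAP1LC3B* (SE 0.192, adjusted p = 1.11e-06, edgeR), -1.31 for *SQSTM1* (SE 0.130, adjusted p = 3.67e-09, edgeR), -1.18 for *GABARAPL1* (SE 0.195, adjusted p = 3.43e-05, edgeR) and -0.69 for *NBR1* (SE 0.135, adjusted p = 3.27e-04, edgeR). The effects of the drugs on these 5 genes were therefore less than additive on the log2 scale. For *WIPI1* the interaction was -0.55 (95% interval -0.98 to -0.12, adjusted p = 0.0597, edgeR).

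ISRIB was added to bortezomib in the remaining co-treatment. Relative to bortezomib alone, 1 of the 10 genes was higher and 3 were lower, beside 6.91% and 5.34% of all genes. *NBR1* fell to 46.5, 49.2, 57.3 and 54.3 CPM, a range that overlapped DMSO and lay below every bortezomib library (log2 -0.44, SE 0.0992, adjusted p = 0.00270, edgeR). *MAP1LC3B* fell to 133, 127, 90.5 and 123 CPM (log2 -0.47, SE 0.131, adjusted p = 0.0152, edgeR), a call that was lost without replicate 3 of the co-treatment (log2 -0.36, adjusted p = 0.0558, edgeR). *SQSTM1* fell to 693, 727, 770 and 702 CPM (log2 -0.33, SE 0.0911, adjusted p = 0.0129, edgeR). These 3 genes did not overlap between the groups, but *MAP1LC3B* and *SQSTM1* stayed above every DMSO library.

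*WIPI1* was the 1 gene of the 10 that rose with ISRIB added, to 39.2, 39.8, 56.0 and 53.6 CPM, above every bortezomib library (log2 0.77, SE 0.143, adjusted p = 2.84e-04, edgeR). ISRIB alone gave 7.49 to 8.53 CPM, which overlapped DMSO. For *GABARAPL1* the log2 difference on adding ISRIB was 0.00 (95% interval -0.22 to 0.22), and for *ULK1* it was 0.00 (-0.23 to 0.23). Their levels were 108 to 131 CPM and 94.0 to 120 CPM, which overlapped bortezomib alone. *GABARAPL2* was at 40.0 to 55.5 CPM (log2 difference 0.41, adjusted p = 0.0561 by edgeR and 0.0459 by DESeq2). *TAX1BP1* (-0.07), *ATG12* (-0.02) and *GABARAP*, at 0 to 2 counts, were not called.

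The interaction of ISRIB with bortezomib, defined in the same way, was called for 2 of the 10 genes. It was 0.90 for *WIPI1* (SE 0.220, adjusted p = 0.0112, edgeR) and -0.52 for *NBR1* (SE 0.138, adjusted p = 0.0215, edgeR). Of all genes, 2.93% had a called interaction above 0 and 1.89% below 0. The *NBR1* call was lost when replicate 1 or 2 of bortezomib with ISRIB, replicate 1 of bortezomib, replicate 1 of DMSO, or replicate 2 or 4 of ISRIB was left out (adjusted p 0.0506 to 0.0647, edgeR), and when no filter was used (0.0627).

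**Figure D3:**
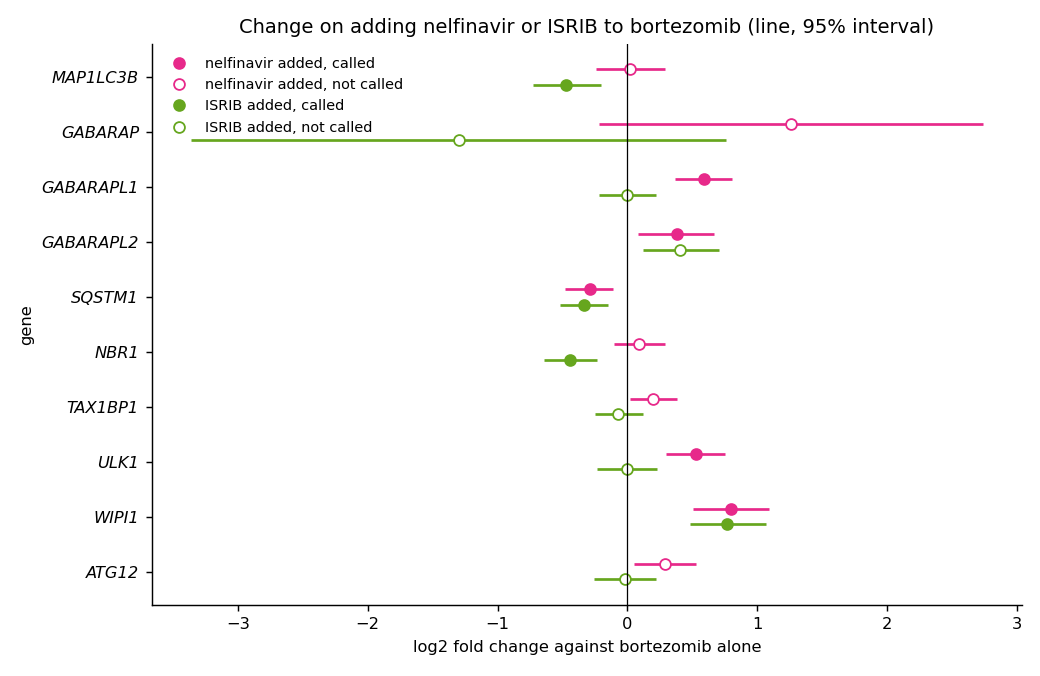
Log2 fold change of each gene against bortezomib alone (horizontal axis) on adding nelfinavir or ISRIB; points are edgeR estimates, lines their 95% intervals, and filled points passed an adjusted p of 0.05. *WIPI1* is to the right of 0 with either drug (0.80 and 0.77) and *SQSTM1* to the left with either (-0.29 and -0.33), *GABARAPL1* and *ULK1* are to the right with nelfinavir only, and the *GABARAP* intervals are wide.

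Both co-treatments were also compared with each other. With nelfinavir 6 of the 10 genes were higher than with ISRIB and none was lower, where 13.2% of all genes were higher and 11.3% lower. The log2 differences were 0.58 for *GABARAPL1*, 0.53 for *NBR1*, 0.53 for *ULK1*, 0.49 for *MAP1LC3B* and 0.27 for *TAX1BP1*. The sixth gene, *GABARAP*, rested on 1, 3, 9 and 15 counts against 1, 1, 2 and 0, and its call was lost without replicate 4 of bortezomib with ISRIB or replicate 3 or 4 of bortezomib with nelfinavir. The *TAX1BP1* call was lost without replicate 4 of bortezomib with ISRIB (adjusted p = 0.0709, edgeR) and with upper-quartile factors (adjusted p = 0.0520, edgeR) or only the groups compared (adjusted p = 0.136, edgeR). *SQSTM1* (log2 difference 0.04, 95% interval -0.15 to 0.22), *WIPI1* (0.02, -0.26 to 0.30) and *GABARAPL2* (-0.04, -0.33 to 0.25) were not called, and for *ATG12* the difference was 0.31 (adjusted p = 0.0516, edgeR). *ATG12* was called under 7 alternatives that kept all libraries, among them DESeq2 (adjusted p = 0.0230), RLE factors (adjusted p = 0.0373, edgeR) and library totals alone (adjusted p = 0.0454, edgeR), and also without some single libraries (lowest adjusted p = 0.0156, edgeR).

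Over the 6 conditions the order of mean levels differed between the genes. From lowest to highest, *GABARAPL1* ran DMSO, ISRIB, nelfinavir, bortezomib, bortezomib with ISRIB and bortezomib with nelfinavir, a 48.7-fold range in which DMSO and ISRIB overlapped, as did bortezomib and bortezomib with ISRIB. *ULK1* had a range of 13.2-fold, *MAP1LC3B* of 7.91-fold and *WIPI1* of 6.10-fold, each highest in bortezomib with nelfinavir but overlapping the next lower condition. *SQSTM1* was highest in bortezomib alone (range 4.42-fold) and *NBR1* in nelfinavir alone (1.72-fold). In *GABARAPL2*, with a range of 1.33-fold, each condition overlapped the next in order.

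For the 3 genes with the widest range, the genes of most similar pattern were sought by the root mean square difference of their 5 log2 fold changes against DMSO, over 12684 other genes. The comparisons share the DMSO libraries, so the likeness is a description. Nearest to *GABARAPL1* were *GDF15* (0.36), *SSX1* (0.46) and *PPP1R15A* (0.48). Nearest to *ULK1* were *YPEL5* (0.32), *S100P* (0.35) and *PTPRH* (0.36). The genes nearest to *MAP1LC3B* were *ARHGEF2* (0.21), *GCKR* (0.24) and *NR0B2* (0.25).

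The wider pathway was described with a list of 58 other autophagy genes, of which 55 were in the matrix and 53 were tested. With bortezomib 30 of the 53 were higher and 6 lower, beside 27.6% and 25.8% of all genes, with a median log2 fold change of 0.55 against 0 over all genes. That split depended on the scaling, as did the split of all genes. Upper-quartile factors gave 26 higher and 9 lower, where 3054 of all genes were higher and 3695 lower. Library totals alone gave 19 higher and 15 lower, where 1490 of all genes were higher and 6266 lower. All 3 tested partners of ULK1 rose, among them *RB1CC1*, which encodes the scaffold FIP200 (log2 1.76), and *ATG13* (1.51). In the group of phosphoinositide binding and lipid supply, 7 of 8 genes rose and none fell. Of the 9 conjugation genes 5 rose and 1 fell, *ATG4C*, a protease that processes ATG8 proteins (12.9 CPM in DMSO and 6.41 CPM in bortezomib, adjusted p = 0.00894, edgeR). Its family members *ATG4A* (log2 0.78, with overlapping libraries), *ATG4B* (0.55) and *ATG4D* (1.36) were among the 5 that rose.

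Among 11 other receptors and adaptors 5 rose with bortezomib and 2 fell, beside 27.6% higher and 25.8% lower among all genes. The same shares apply to the small groups of fusion genes, regulators and PI3-kinase complex genes that follow. No group was tested as a set. The largest increases were in *CCPG1*, a receptor for autophagy of the endoplasmic reticulum, at 29.3 CPM in DMSO and 157 CPM in bortezomib (log2 2.41, adjusted p = 1.22e-18, edgeR), and in *CALCOCO2*, which encodes the receptor NDP52, at 49.2 and 174 CPM (log2 1.82, adjusted p = 5.09e-16, edgeR). Of 7 fusion genes 3 rose and 1 fell, the SNARE gene *VAMP8* (log2 -1.26, adjusted p = 1.93e-09, edgeR). Among 6 regulators 2 rose and 1 fell. *TFE3* rose from 15.4 to 32 CPM (log2 1.05, adjusted p = 3.03e-06, edgeR). *TBK1* rose from 10.3 to 15.9 CPM, with overlapping libraries (log2 0.63, adjusted p = 0.0262, edgeR). The gene that fell was *TFEB*, a master transcription factor of lysosome and autophagy genes. Its level was low and went from 4.48 to 1.11 CPM (log2 -2.01, SE 0.577, adjusted p = 0.00348, edgeR). Of the 8 other genes of the PI3-kinase complex, 4 rose and 1 fell. The list's other ATG8 gene, *MAP1LC3B2*, was called (log2 3.25) and is among the 30 higher genes, but is a close paralog of *MAP1LC3B*. Its mean was 0.064 CPM in DMSO and only 0.753 CPM in bortezomib, with overlapping libraries, so its reads are uncertain. At 0.17 CPM in ISRIB and 0.286 CPM in nelfinavir, it passed the filter mainly through libraries with bortezomib, so its call carries no weight.

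With nelfinavir alone 16 of the 53 genes rose and 2 fell, beside 10.4% and 8.84% of all genes (median 0.27 against 0.01 over all genes). *CCPG1* again led (log2 1.64, adjusted p = 1.35e-13, edgeR), followed by *WDR45*, a relative of *WIPI1* (1.41), and *FOXO3*, a transcription factor that induces autophagy genes (1.18). Those that fell were *PIK3R4* (-0.62), a subunit of the PI3-kinase complex, and the ferritin receptor gene *NCOA4* (-0.31). With ISRIB alone edgeR called 0 of the 53, with 4 at an unadjusted p below 0.05, and DESeq2 called 0.

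Adding nelfinavir to bortezomib raised 17 of the 53 genes and lowered 4, beside 15.6% and 13.4% of all genes (median 0.23 against -0.02). The PI3-kinase complex genes *NRBF2* (1.10) and *AMBRA1* (0.80) and the regulator *FOXO3* (1.00) rose, and all 3 tested ULK1 partners were again higher. The fusion SNARE gene *STX17* (-0.80), *VMP1* (-0.62) and *UVRAG* (-0.49) fell. Adding ISRIB raised 2 of the 53, *PIK3R4* (0.87) and *ATG13* (0.38), and lowered 5, among them *ATG7* (-0.84), *UVRAG* (-0.60) and *STX17* (-0.50). These counts stand beside 6.91% higher and 5.34% lower among all genes, and they are too small to set the list apart from genes in general. With only the groups compared in the model, 2 of the 53 genes were called on adding ISRIB in place of 7.

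**Figure D4:**
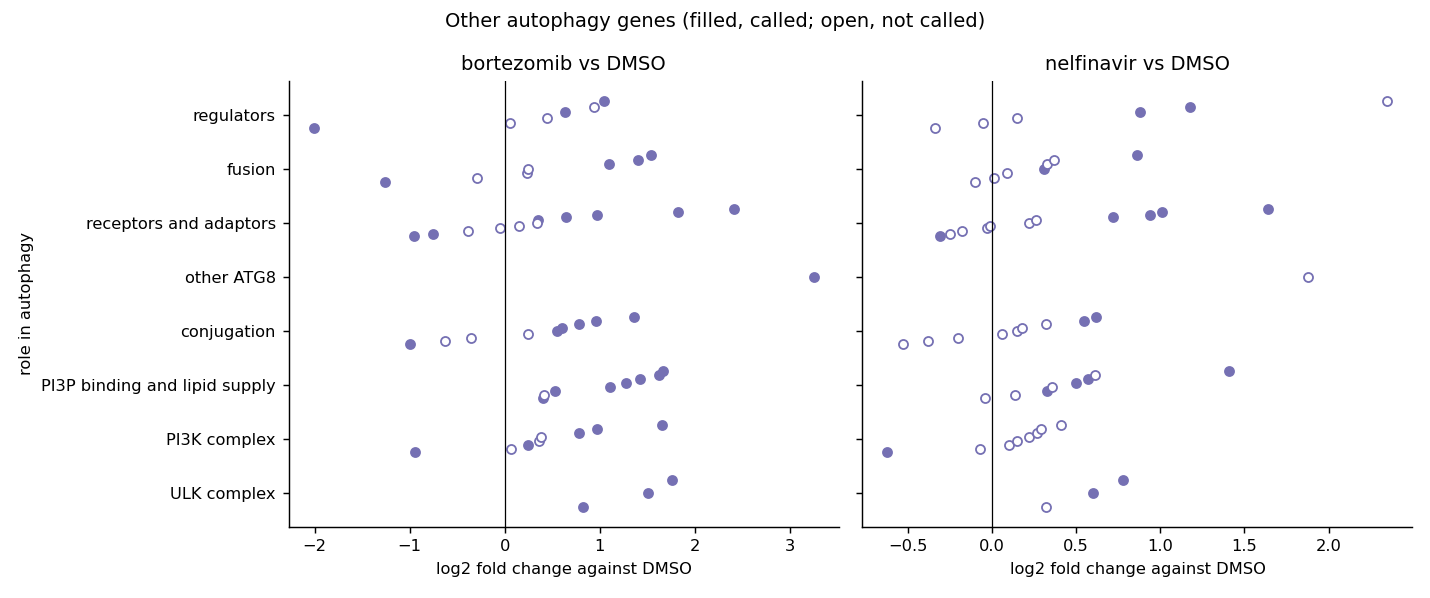
Log2 fold change against DMSO (horizontal axes) of the 53 tested other autophagy genes, grouped by role, for bortezomib (left) and nelfinavir (right); filled points passed an adjusted p of 0.05. With bortezomib the points run from -2.01 for *TFEB* to 3.25 for *MAP1LC3B2*, which passed the filter mainly through libraries with bortezomib. Of the filled points 30, with *MAP1LC3B2* among them, lie to the right of 0 and 6 to the left. With nelfinavir 16 lie to the right and 2 to the left.

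Some of these genes share their 3′ end with a gene on the other strand, and whether strand was used in counting is not given in the sources used here. Their reads could not be told apart if it was not. *SQSTM1* overlaps *C5orf45* (also named *MRNIP*) in this way, *WIPI1* overlaps *ARSG*, *TAX1BP1* overlaps *JAZF1*, and *GABARAPL2* overlaps a long noncoding RNA gene. The counts listed for *C5orf45* were 76 to 107 in DMSO and 5 to 20 in bortezomib, beside 1424 to 2021 and 4207 to 4614 for *SQSTM1*. For *ARSG* they were 3 to 9 and 0 to 6, beside 51 to 91 and 106 to 144 for *WIPI1*. In the last 500 bases of each of the 10 genes, no near copy (at least 80 bases at 97% identity) was found elsewhere in GRCh37.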

How the data were processed

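Transcript 3′ ends (QuantSeq FWD kit, single-end reads of 80 bp) were sequenced from HepG2 cells in 6 conditions with 4 biological replicates. The authors trimmed reads with cutadapt 2.8, aligned them to hg19 with STAR within the nf-core RNA-Seq pipeline and deposited unnormalized counts per gene on Ensembl models of protein coding, lincRNA and antisense genes. The counting step of that pipeline, and whether it used strand or molecular identifiers, is not described further in the sources used here. Intervals for counts near 0 hold for counting error only.

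Counts were analysed with edgeR 4.0.16 in R 4.3.3. The filterByExpr function (at least 5 counts, and 25 in total) removed low genes. Libraries were scaled by TMM and genes tested by glmQLFTest in 1 model of 24 libraries with a coefficient per condition, and p-values were adjusted over 12685 genes. Intervals are 95% intervals. The procedure was tested on simulated counts. Alternatives were other scaling factors (RLE, upper-quartile, library totals alone), mitochondrial genes left out, other filters, DESeq2 1.42.0, fits of only the groups compared, a replicate block and leaving out each library.

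The 10 genes and the lists were chosen with earlier results of these data known. All 10 genes are named. Of the other autophagy genes, up to 3 per direction and comparison are named by rule: called, no overlap between groups, largest change. Named after their values were seen were *MAP1LC3B2*, *C5orf45* and *ARSG*, and, with bortezomib, *ATG13*, *ATG4A*, *ATG4B*, *ATG4D*, *TFE3* and *TBK1*. *ULK2*, *MAP1LC3C* and *STBD1* were not analysed here. Proteins of the ATG8 genes were planned but not shown. Overlaps used GENCODE models on GRCh37, with BLAST 2.17.0 for near copies.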

Additional observations from a re-analysis of the deposited data

Results flagged for a closer look

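Among 60 groups of 4 libraries (10 genes in 6 conditions), 5 held a library far from the other 3, where chance alone flags about 1 in 20 groups. *MAP1LC3B* measured 48.15 CPM in nelfinavir replicate 3 (others 60.79 to 61.8) and 136.9 CPM in bortezomib replicate 2 (others 169.2 to 174.5). *GABARAP* measured 0.2799 CPM in DMSO replicate 3 (others 0.781 to 0.8579), on 2 counts. *TAX1BP1* measured 230.3 CPM in DMSO replicate 1 (others 203.5 to 205.7). *ULK1* measured 120.2 CPM in bortezomib with ISRIB replicate 3 (others 93.95 to 96.96).

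The effect of nelfinavir differed between bortezomib-treated and vehicle-treated cells by a test of the difference itself, with log2 interactions of -1.44 for *MAP1LC3B*, -1.18 for *GABARAPL1*, -1.31 for *SQSTM1*, -0.69 for *NBR1* and -1.66 for *ULK1*. By the same kind of test the effect of ISRIB differed for *NBR1* (-0.52) and, in the opposite direction, for *WIPI1* (0.90). The *NBR1* call was lost under 7 alternatives.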

How the results depend on the processing

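The count of the 10 genes called moved by at most 1.5 times under every alternative that kept all libraries, for all 9 comparisons. With library totals alone *NBR1* turned to -0.06 in bortezomib against DMSO and *WIPI1* to -0.14 in bortezomib against nelfinavir. On adding nelfinavir to bortezomib, *MAP1LC3B* was at -0.02 with upper-quartile factors and -0.01 with library totals alone. Between the co-treatments *WIPI1* was at -0.01 with upper-quartile factors and *GABARAPL2* at 0.01 without a filter. None of these 6 values was called. Leaving out 1 library changed the sign of 6 differences that were not called. They ran from -0.77 to 0.07 for *GABARAP* (bortezomib against DMSO), from -0.04 to 0.15 for *MAP1LC3B* (nelfinavir added), from -0.15 to 0.01 for *TAX1BP1* and from -0.05 to 0.03 for *ATG12* (both ISRIB added), and, between the co-treatments, from -0.09 to 0.15 for *GABARAPL2* and from -0.01 to 0.16 for *WIPI1*. Leaving out 1 library gave 3 to 6 of the 10 genes called on adding nelfinavir to bortezomib, with 3 called without replicate 2 of the co-treatment or replicate 3 or 4 of bortezomib, and 1 to 2 for the interaction of ISRIB with bortezomib. For the other autophagy genes on adding ISRIB, 2 in place of 7 were called with only the groups compared. The cause was not tested.

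Whether a replicate number marks a shared culture, day or batch is not given in the sources used here. In the ISRIB group the replicate numbers do not follow the order of the sample numbers in the labels, as they do in the other conditions. Which order would pair the ISRIB libraries with the others is not known. Residuals correlated above 0.1 in 10 of 60 same-numbered pairs and in 7 of 180 pairs with different numbers. The share was larger among same-numbered pairs, and its reason was not tested. With a replicate block the count of the 10 genes called was 8 for bortezomib, 7 for nelfinavir, 6 on adding nelfinavir to bortezomib and 4 on adding ISRIB. The block added the call of *ATG12* on adding nelfinavir (adjusted p = 0.0348, edgeR) and between the co-treatments (adjusted p = 0.0302, edgeR) and changed no other call among the 10 genes. Depth limited *GABARAP* most, with 0 to 15 counts per library.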
